A study of Mus musculus with 6 samples.

Results

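Immunity-related GTPases (IRGs) are GTP-binding proteins that mouse cells make in response to interferons. The 5 IRG genes described here, Iigp1, Irgm1, Irgm2, Igtp and Ifi47, were chosen by the gene symbol that the array platform gives to each probe set, a group of short probes for 1 transcript. They account for 6 of 45101 probe sets and for 5 of the 18193 genes compared. No filter on low values was applied, so all 5 genes and all 6 probe sets were tested.

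The arrays were Affymetrix MOE430 2.0. Bone marrow cells of healthy C57BL/6 mice received, with the reagent GeneSilencer, either a mimic of the microRNA miR-142-3p (the mimic group, 3 arrays) or a control oligonucleotide (the control group, 3 arrays). The labels' protocol gives 100 nM for the oligonucleotide. The cytokines GM-CSF and IL-6 followed after 5 h in both groups and stayed for 4 days, conditions in which marrow gives rise to myeloid-derived suppressor cells, and RNA was then taken. The labels name no sex or age, and they do not say whether the arrays of a group came from separate cultures or mice, so a p-value here speaks of the spread between 6 samples that may be technical repeats. Precision is limited by the small number of arrays.

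IRG proteins act at membranes. The effector proteins, among them those of Iigp1 (also named Irga6) and Ifi47 (also named Irgd), carry the amino acids GKS in the GTP-binding loop and assemble on the vacuoles in which parasites such as Toxoplasma live. The regulators, encoded by Irgm1, Irgm2 and Igtp (also named Irgm3), carry GMS in that loop, sit on the cell's own membranes and keep the effectors in their inactive state there. Irgm1 is also known for its part in the defence of macrophages against mycobacteria.

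The mature microRNA that the mimic stands for is shown because it is the agent that separates the groups. It is mmu-miR-142a-3p in RefSeq (GRCm38.p6, chr11:87756903-87756925, plus strand), with its seed, bases 2 to 8, in capitals. The labels do not print the sequence of the mimic itself.
mmu-miR-142a-3p: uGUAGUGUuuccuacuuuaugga

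Promoters of Irgm1, Irgm2, Igtp and Ifi47 were matched in RefSeq by symbol, and the 120 bases before the listed start are shown because these genes moved together. Iigp1 moved with them, but the promoter sequences used held no entry for it, so it is left out here. They come from GRCm38.p6 and are written 5′ to 3′ on the strand of the gene, at chr11:48871421-48871540 (minus) for Irgm1, chr11:58214857-58214976 (plus) for Irgm2, chr11:58199436-58199555 (plus) for Igtp and chr11:49076467-49076586 (plus) for Ifi47. Capitals mark matches to GAAANNGAAA, the core of the element that type I interferon signalling acts through (ISRE), and to TTCNNNGAA, the core of the element known for interferon-gamma signalling (GAS).
Irgm1: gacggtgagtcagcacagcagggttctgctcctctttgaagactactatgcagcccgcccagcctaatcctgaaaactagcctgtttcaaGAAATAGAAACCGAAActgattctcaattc
Irgm2: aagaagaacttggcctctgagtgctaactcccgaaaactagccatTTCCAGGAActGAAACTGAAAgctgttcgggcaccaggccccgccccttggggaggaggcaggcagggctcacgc
Igtp: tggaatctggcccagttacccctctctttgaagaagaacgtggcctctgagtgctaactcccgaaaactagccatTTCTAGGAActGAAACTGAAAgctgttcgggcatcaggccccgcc
Ifi47: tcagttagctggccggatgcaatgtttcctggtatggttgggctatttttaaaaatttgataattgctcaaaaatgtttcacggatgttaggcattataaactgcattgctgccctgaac

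Both patterns were searched on both strands over the 250 bases before the start. The regulator genes Irgm2 and Igtp held the same pair, a TTCNNNGAA match followed by a GAAANNGAAA match with 2 bases between them. In Igtp the GAAANNGAAA match lay 34 to 25 bases before the start, and in Irgm2 it lay 64 to 55 bases before. Irgm1 held GAAANNGAAA matches at 30 to 21 and at 24 to 15 bases before the start, which overlap, and none to TTCNNNGAA. In Ifi47 neither string of letters occurred in this window. Of 32851 promoters in the table, 2.98% held GAAANNGAAA and 7.02% held TTCNNNGAA, a pattern that reads the same on both strands. In a global alignment the 250-base windows of Igtp and Irgm2 were identical in 194 of 285 columns, or 68.1%. That was the highest value among the pairs of these 4 genes, while the other pairs stood at 43.6% to 51.1%. Columns with a gap were counted as not identical. The share of identical bases where both windows hold a base is therefore higher than these values. The genes Igtp and Irgm2 are direct neighbours on the chromosome in RefSeq, and Irgm1 and Ifi47 lie close together in another cluster on it. A match is a string of letters and was not tested as a binding site.

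All 5 IRG genes were higher with the mimic. The largest difference was in Iigp1, at 7.80-fold, and the other 4 were 1.99-fold to 2.57-fold higher. Each of the 5 passed an adjusted p of 0.05 in limma's test over all genes, with adjusted p from 0.0144 to 0.028. In that test 1.17% of the genes passed upward and 1.59% downward. The median log2 fold change of the 5 genes was 1.27, against 0.01 for all 18193 genes. In all 5 every mimic array lay above every control array, a separation that 11% of all genes showed.

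Iigp1 (Entrez gene 60440) is an effector gene. Its probe set 1419042_at read 2.41, 3.91 and 4.30 on the control arrays, numbered 1 to 3, and 6.44, 6.45 and 6.62 on the mimic arrays in that order, on the deposited log2 scale. The mimic arrays lay close together and well above the controls, among which control array 1 was far below the other controls. The group levels were 3.54 ± 1.0 in control cells and 6.50 ± 0.10 in mimic cells (SD, n = 3), or 2.96 ± 0.42 as log2 fold change with its SE (limma, adjusted p = 0.0168). This was the second highest log2 fold change of the 18193 genes.

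A second Iigp1 probe set, 1419043_a_at, was read from the same labelled RNA and is not a further replicate. It stood at 1.93, 3.61 and 4.22 on control arrays 1 to 3 and at 6.24, 6.08 and 6.20 on the mimic arrays in that order. Its order of control arrays was that of the first probe set, and the groups did not overlap, as in 8.62% of all probe sets with the mimic arrays higher. Its log2 fold change was 2.92 ± 0.51 in a test of all 45037 probe sets that are not controls (adjusted p = 0.0553 by limma). In that test 0.329% of the probe sets passed upward. Of the 6 IRG probe sets 3 passed there, those of Igtp, Ifi47 and the first of Iigp1 (adjusted p = 0.032, 0.0409 and 0.0359), and Irgm1 and Irgm2 had an adjusted p of 0.0547 and 0.0553.

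Ifi47 (Entrez gene 15953, probe set 1417292_at), the other effector gene, read 6.69, 7.21 and 7.49 on control arrays 1 to 3 and 8.40, 8.41 and 8.31 on the mimic arrays in that order. Control array 1 was again the lowest, and the mimic arrays spanned a narrow range above all controls. Its mean rose from 7.13 ± 0.41 to 8.37 ± 0.05 (SD, n = 3), 2.37-fold, which is 1.25 ± 0.19 as log2 fold change (limma, adjusted p = 0.0195).

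Among the regulators, Igtp (Entrez gene 16145, probe set 1417141_at) read 5.81, 6.35 and 6.60 in control arrays 1, 2 and 3. With the mimic it read 7.61, 7.67 and 7.58. The groups were separate, and the mimic values differed from each other by less than any pair of control values. Igtp rose from 6.25 ± 0.40 to 7.62 ± 0.04 (SD, n = 3), or 2.57-fold, with a log2 fold change of 1.36 ± 0.19 and the lowest adjusted p of the 5 genes (0.0144 by limma).

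Irgm2 (Entrez gene 54396, probe set 1417793_at) read 4.07, 4.82 and 4.95 on control arrays 1 to 3 and 5.79, 5.99 and 5.84 on the mimic arrays in that order. Here too control array 1 was lowest and the groups did not overlap. The rise was from 4.61 ± 0.47 to 5.88 ± 0.10 (SD, n = 3), or 2.40-fold and 1.27 ± 0.22 as log2 fold change (limma, adjusted p = 0.028). Igtp and Irgm2 are paralogs with similar sequence, and whether probes of one also bind the transcript of the other was not tested.

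Irgm1 (Entrez gene 15944, probe set 1418825_at) had the smallest rise of the 5. It read 5.84, 6.38 and 6.47 on control arrays 1 to 3 and 7.34, 7.10 and 7.23 on the mimic arrays in that order, so the groups were separate. Its mean went from 6.23 ± 0.34 to 7.22 ± 0.12 (SD, n = 3), 1.99-fold, or 0.99 ± 0.17 as log2 fold change (limma, adjusted p = 0.028).

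**Figure D1:**
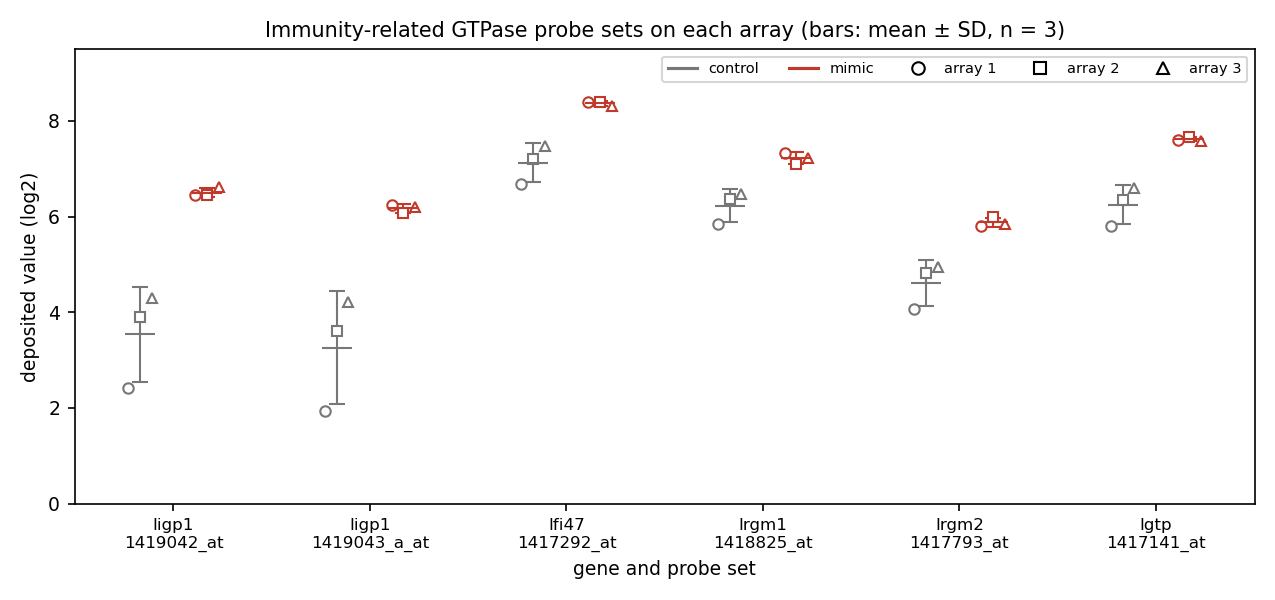
Deposited log2 value (vertical axis) of the 6 IRG probe sets (horizontal axis) on the 3 control arrays (grey) and the 3 mimic arrays (red), with mean ± SD as bars and 1 symbol per array number. Every mimic array lies above every control array in each probe set, and control array 1 is the lowest of all arrays in each, at 2.41 in the first Iigp1 probe set and 6.69 in Ifi47.

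The control arrays differed from each other in the same way in all 5 genes. Relative to the control mean of each gene, control array 1 was lower by 0.39 to 1.13, control array 2 was higher by 0.08 to 0.37 and control array 3 was higher by 0.24 to 0.76. Control array 1 was the lowest of the 6 arrays in 24.2% of all genes. Without control array 1 all 5 genes still passed, with log2 fold changes of 2.40 for Iigp1, 0.80 for Irgm1, 0.99 for Irgm2, 1.14 for Igtp and 1.02 for Ifi47 (adjusted p from 0.0089 to 0.0252 by limma). In that fit 162 of all 18193 genes passed upward and 194 downward. Iigp1 was the IRG gene most moved by control array 1, and leaving out control array 3 in its place gave 3.34.

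The calls depended on which array was left out. All 5 genes also passed without control array 3, and 0 of 5 passed by limma without control array 2, mimic array 1, mimic array 2 or mimic array 3 (adjusted p from 0.075 to 0.153, with 5 of 5 at an unadjusted p under 0.05 in each). Over all genes 0 passed when control array 2 or either of mimic arrays 1 and 3 was left out (2564, 2343 and 2746 at an unadjusted p under 0.05), and 65 passed without mimic array 2. Without control array 3, 165 of all genes passed upward and 248 downward. Of the genes in the related lists described below 32 passed with all arrays, 25 passed in each of the fits that omit control array 1 or 3, and at most 3 passed in each of the other 4.

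**Figure D2:**
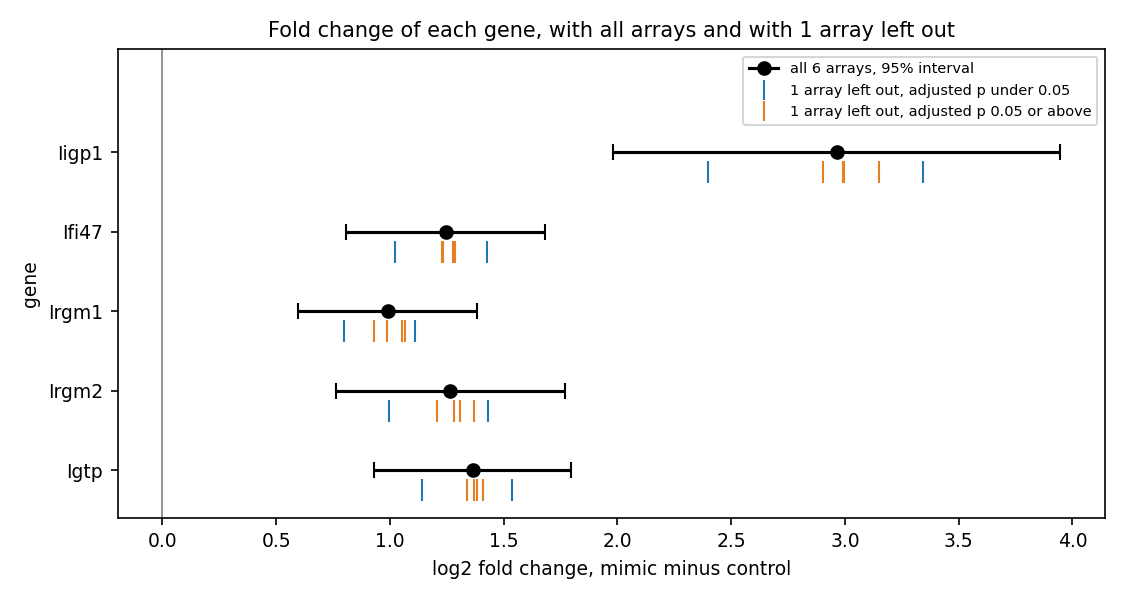
Log2 fold change of each IRG gene, mimic minus control (horizontal axis), with its 95% interval from limma over all 6 arrays (black) and the values after leaving out 1 array (ticks, blue where the adjusted p is under 0.05 and orange where it is not). The interval of Iigp1 runs from 1.98 to 3.94 and lies above those of the other 4 genes, whose values run from 0.99 to 1.36.

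The point estimates of the 5 genes differed, with Iigp1 the highest, but no difference between genes passed a test. Within each array the value of 1 gene was subtracted from that of another, and these differences were compared between groups for all 10 pairs. The difference between Iigp1 and Irgm1 was -2.69 ± 0.66 in control cells and -0.72 ± 0.16 in mimic cells (SD, n = 3), so the log2 fold change of Iigp1 was higher by 1.97. It was higher than those of Igtp, Irgm2 and Ifi47 by 1.60, 1.70 and 1.72. In each of these 4 pairs the groups were separate (exact two-sided permutation p = 0.1, adjusted p = 0.143 over 10 pairs). That is the smallest p that 3 arrays against 3 can give, so no pair could pass.

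Differences among the other 4 genes were smaller. The log2 fold change of Igtp was higher than that of Irgm2 by 0.10 (exact permutation p = 0.3) and that of Irgm2 higher than that of Ifi47 by 0.02 (exact permutation p = 0.9), both less than the SD between control arrays. Those of Ifi47 and Igtp were higher than that of Irgm1 by 0.26 and 0.37 (exact permutation p = 0.1 for each). As classes, the mean of the effectors Iigp1 and Ifi47 minus the mean of the regulators Irgm1, Irgm2 and Igtp was -0.36 ± 0.30 in control cells and 0.53 ± 0.04 in mimic cells (SD, n = 3), a shift of 0.90 (exact two-sided permutation p = 0.1). Of the effectors, the log2 fold change of Iigp1 (2.96) was above those of all 3 regulators, while that of Ifi47 (1.25) was below those of Igtp and Irgm2.

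The genes whose values over the 6 arrays came nearest to those of the IRG genes were found by centring each gene on its own mean and taking the root mean square difference from the mean of the 5. Of 2275 named genes whose mean log2 was 6 or more, the nearest were Clec4a3, a C-type lectin receptor gene (0.069 log2 units), the guanylate-binding protein gene Gbp7 (0.0707), the exonuclease gene Isg20 (0.0723), Ifi209 of the p200 family (0.0901) and Ms4a6b of the Ms4a tetraspan family (0.153). The IRG genes themselves lay 0.127 (Igtp) to 0.753 (Iigp1) from their mean. Although 4 of the nearest genes lay closer to it than any IRG gene, they were picked from 2275 for being close. Clec4a3 read 5.15, 5.73 and 5.98 on the control arrays, numbered 1 to 3, and 7.14, 7.24 and 7.23 on the mimic arrays in that order. It thus had the low control array 1 and the even mimic arrays of the IRG genes. The likeness is over the same 6 arrays in which the IRG genes were measured and is a description.

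**Figure D3:**
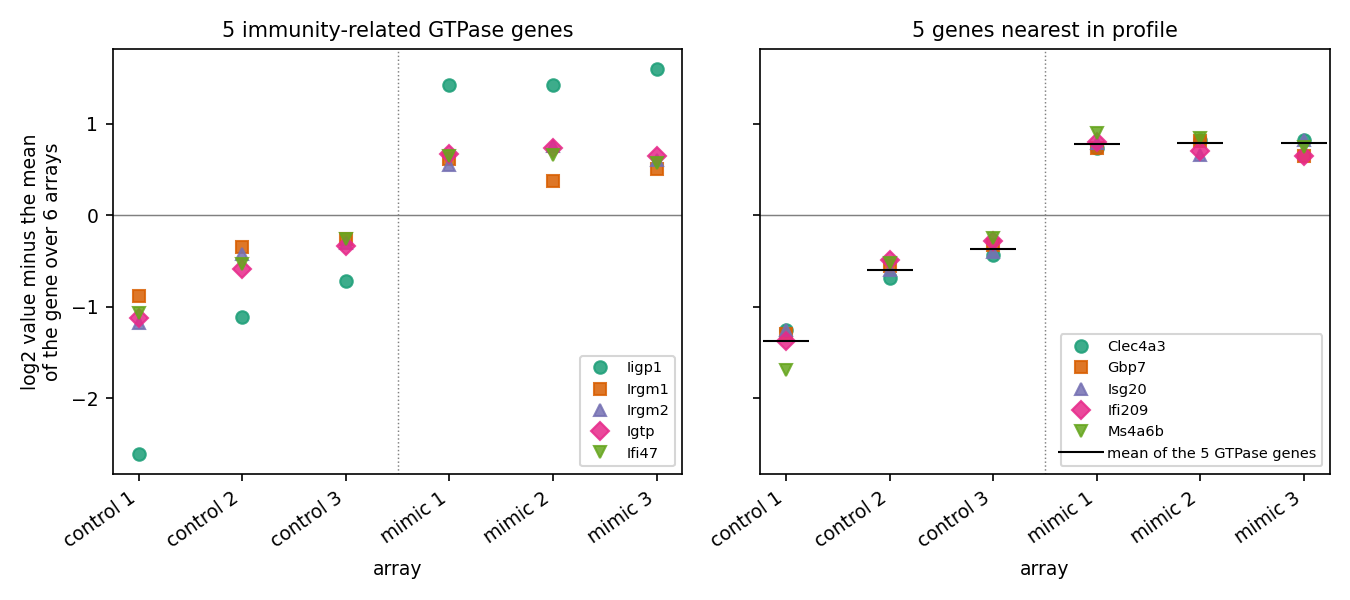
Log2 value minus the mean of the gene over 6 arrays (vertical axis) for the 5 IRG genes (left) and the 5 genes nearest in profile (right), by array (horizontal axis), with the mean of the IRG genes as black bars. That mean is -1.37, -0.60 and -0.37 on the control arrays and 0.78, 0.79 and 0.78 on the mimic arrays, and Iigp1 has the widest range of the 5.

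Of the other genes of the IRG family, 3 were measured by a probe set of their own, and 1 rose. Gm4951, an IRG gene and one of the measured neighbours of Iigp1 in RefSeq, read 3.97 ± 0.84 in control cells and 5.84 ± 0.14 in mimic cells (SD, n = 3), so that its log2 fold change was 1.87 ± 0.36 (limma, adjusted p = 0.0397, or 0.0544 with the replicate number as a block). Irgc1 and Irgq, family members that are not known as interferon-induced, had log2 fold changes of -0.11 ± 0.13 and -0.06 ± 0.10 (adjusted p = 0.751 and 0.814 by limma). Both were dim, with means in control and mimic cells of 2.24 and 2.13 for Irgc1 and of 2.94 and 2.88 for Irgq. Of the 19 measured protein-coding genes within 3 places of an IRG gene along the chromosome, members excepted, Gm4951 was the 1 gene that rose and 0 fell. Their median log2 fold change was 0.05. Gm12185, between Irgm1 and Ifi47, read 0.38 ± 0.10 in control and 0.39 ± 0.13 with the mimic, below the median of every array.

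Guanylate-binding proteins are larger interferon-induced GTPases that act on the same vacuoles. Of 6 measured genes 5 rose and 0 fell (median log2 fold change 1.71), and the same number rose without control array 1. The counts of this list and of those below stand beside 1.17% of all genes that rose and 1.59% that fell. In this list Gbp8 had the largest rise (2.30 ± 0.30, adjusted p = 0.0136 by limma), followed by Gbp3 (1.98 ± 0.39) and Gbp6 (1.87 ± 0.35). With the replicate number as a block 4 rose, and Gbp3 did not pass (adjusted p = 0.0507 by limma). Gbp2b did not pass, and it was dim in both groups (means of 0.46 and 0.80).

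Among genes that carry the interferon signal none passed upward. The ligand gene Ifng read 0.18 ± 0.11 in control cells and 0.22 ± 0.06 in mimic cells (SD, n = 3), and Ifnb1 0.45 ± 0.17 and 0.34 ± 0.24, below the medians of all arrays, which ran from 0.841 to 0.919. Of 12 ligand, receptor and kinase genes 0 rose and 2 fell by limma at the adjusted p of 0.05, with a median log2 fold change of -0.07. These were the kinase gene Jak1 (-0.75 ± 0.14, adjusted p = 0.0373) and the type I receptor gene Ifnar1 (-0.62 ± 0.10, adjusted p = 0.0213). Without control array 1 or control array 3, Ifnar1 passed and Jak1 did not (adjusted p = 0.0668 and 0.102 by limma). With the replicate number as a block neither passed (adjusted p = 0.0615 for Jak1 and 0.0632 for Ifnar1). The genes of the chains of the interferon-gamma receptor, Ifngr1 and Ifngr2, had log2 fold changes of 0.29 ± 0.10 and -0.76 ± 0.22, and neither passed (limma, adjusted p = 0.206 and 0.129). These 2 genes and Ifnb1 were chosen after their values were seen.

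Downstream of the receptors, 3 of 10 transcription factor and feedback genes rose and 0 fell (median log2 fold change 0.25). They were Irf1, an activator of many IRG genes (0.78 ± 0.11, adjusted p = 0.0144 by limma), Irf7, which amplifies type I interferon responses (1.05 ± 0.18, adjusted p = 0.0273), and Usp18, a feedback inhibitor of the type I receptor (1.11 ± 0.16, adjusted p = 0.018). The same number rose without control array 1.

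Interferon targets outside the GTPase families were read from separate lists for each interferon, although most such genes answer to both. Of 17 genes known as type I targets 12 rose and 0 fell (median log2 fold change 0.98), where 1.17% of all genes rose and 1.59% fell. In this list 9 rose without control array 1 and 8 with the replicate number as a block. In the same 2 fits 162 and 126 of all 18193 genes rose. The largest rises of this list were in Ifit2 (2.33 ± 0.41), Rsad2 (2.33 ± 0.38) and Ifit3 (2.14 ± 0.28), genes of antiviral proteins. Of 17 genes known as interferon-gamma targets 7 rose and 0 fell, with a median of 0.32. Of these 17 genes 5 rose without control array 1, 4 without control array 3 and 4 with the replicate number as a block. Cxcl9, a chemokine gene, rose by 1.19 ± 0.13 but was dim, at 2.10 ± 0.21 with the mimic. Nlrc5, the activator of MHC class I genes, rose by 0.85 ± 0.11 and Fcgr1, an Fc receptor gene, by 0.84 ± 0.11. The difference between these lists was not tested.

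Autophagy proteins of the ATG conjugation system are needed to place IRG effectors on vacuoles. Of 19 measured genes of this system and its adaptors 0 passed limma's adjusted p of 0.05 in either direction, and their median log2 fold change was 0.01. The largest difference was in Atg12, at 4.76 ± 0.45 in control cells and 5.68 ± 0.05 in mimic cells (SD, n = 3), with 0.92 ± 0.21 as log2 fold change (limma, adjusted p = 0.065). Without control array 3 it passed, as 1 gene of this list (1.13, adjusted p = 0.0293 by limma). Atg5 and Atg16l1 had log2 fold changes of -0.19 ± 0.12 and 0.01 ± 0.15. Of 5 genes listed as partners of vacuole attack 2 rose, the ubiquitin ligase gene Trim21 (0.76 ± 0.14, adjusted p = 0.036 by limma) and the Rab regulator gene Rabgap1l (0.58 ± 0.09, adjusted p = 0.0238). Without control array 1 or control array 3 Trim21 passed and Rabgap1l did not (adjusted p = 0.0506 and 0.0664 by limma), and with the replicate number as a block neither did (0.0559 for Trim21 and 0.0609 for Rabgap1l). Atg5 and Atg16l1 were chosen for their role.

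**Figure D4:**
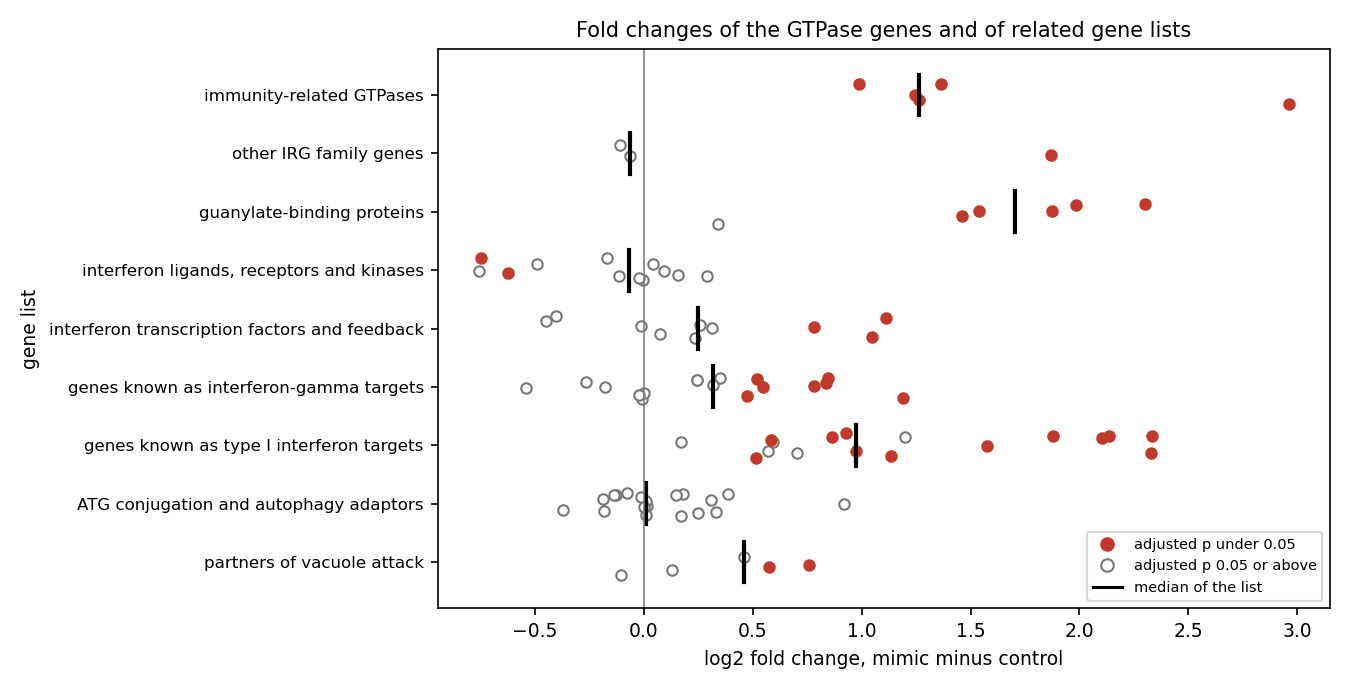
Log2 fold change, mimic minus control (horizontal axis), of each measured gene in the IRG list and in 8 related gene lists (vertical axis), with red points at an adjusted p under 0.05, open points above it and a black line at the median of the list. The IRG genes lie between 0.99 and 2.96, while the 19 autophagy genes have a median of 0.01 and no red point.

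The cells carried the markers of a myeloid culture in both groups. Of 7 measured myeloid markers 2 fell and 0 rose, with a median log2 fold change of -0.25. For this and the cell type lists that follow, 1.59% of all genes fell and 1.17% rose. The myeloid markers that fell were Itgam, which encodes CD11b (-1.19 ± 0.17, adjusted p = 0.017 by limma), and the lysozyme gene Lyz2 (-0.53 ± 0.09, adjusted p = 0.0238). S100a8 and S100a9, calcium-binding proteins of neutrophils and monocytes, read 11.8 to 12.2 in control and 11.9 to 12.3 with the mimic. Csf3r, the receptor gene for G-CSF, and Cd33 had log2 fold changes of -0.25 ± 0.11 and -0.29 ± 0.12, neither of which passed limma's threshold (adjusted p = 0.282 and 0.254). Summed on the linear scale, the 7 markers ran from 11470 to 12038 in control and from 11254 to 11410 with the mimic, a sum that the bright S100a8, S100a9 and Lyz2 make up for the most part. Without Lyz2 it was 8789 to 9280 in control and 9455 to 9475 with the mimic. In these bulk samples more cells of a type and more RNA per cell cannot be told apart.

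Some markers of other cell types also differed between the groups, in both directions, while most did not pass. Their part in the IRG rise was not tested. Each list's summed linear level is given with and without the gene whose mean linear level differed most between the groups. Of 8 conventional dendritic cell markers 4 fell and 0 rose, with a sum of 265 to 802 in control and 54.3 to 60.5 with the mimic. Without the chemokine gene Ccl17 it was 184 to 487 and 48.1 to 54.2. Xcr1 and Zbtb46 of this list read 0.28 to 0.67 and 0.50 to 1.79 on the log2 scale over all arrays.

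Of 8 plasmacytoid dendritic cell markers 1 rose and 0 fell. It was Bst2, itself interferon-induced (0.72 ± 0.11, adjusted p = 0.0203 by limma), and the sum was higher with the mimic when it was counted and not when it was omitted. The whole list summed to 227 to 248 in control and 312 to 373 with the mimic, and the other 7 markers to 50.5 to 63.1 in control and 46.5 to 54.5 with the mimic. Siglech, the defining marker of these cells, read 1.14 to 1.59 in control and 0.91 to 1.53 with the mimic on the log2 scale.

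Of 9 T and NK cell markers, cells that make interferon-gamma, 2 rose and 1 fell. Gzmb, which encodes granzyme B, rose 4.05-fold and the NK receptor gene Klrk1 1.89-fold (adjusted p = 0.00731 and 0.00859 by limma), while Thy1, a surface marker of T cells, fell by 2.36 ± 0.22 on the log2 scale (adjusted p = 0.00673 by limma). The list's sum was 109 to 185 in control and 55.8 to 60.7 with the mimic, and its direction was set by Thy1. The other 8 markers summed to 21.5 to 24.1 in control and 33.6 to 39.1 with the mimic. Of these only Gzmb and Klrk1 passed, and both were dim. Their log2 means in control and mimic cells were 1.72 and 3.74 for Gzmb and 2.40 and 3.31 for Klrk1. Cd3e, Cd3d, Cd3g, Cd2, Ncr1 and Eomes did not pass. Cd3d, Cd3g, Ncr1 and Eomes read 0.43 to 1.17 on the log2 scale over all arrays.

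Of 5 B cell markers 1 fell and 0 rose (sum 83.2 to 123 in control and 63.7 to 76.6 with the mimic, or 44.4 to 48.7 and 28.0 to 32.1 without Cd79b). Of 8 macrophage markers 1 rose, C1qb, and 1 fell, Csf1r. Their sum was 1435 to 1436 in control and 1292 to 1363 with the mimic, but 785 to 839 and 870 to 921 without Csf1r. Of 8 stromal and endothelial markers 1 fell and 0 rose, the collagen gene Col1a2 being the one that fell (sum 49.6 to 67.3 in control and 41.4 to 50.3 with the mimic, or 30.0 to 43.8 and 32.6 to 38.4 without it).

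Arrays also differed in technical measures. The bacterial spike-in probe sets averaged 8.57 in control array 1, 7.58 and 7.53 in control arrays 2 and 3, and 8.06 to 8.92 with the mimic. With that level as a covariate, a fit chosen after seeing the data, all 5 IRG genes passed, with log2 fold changes from 1.15 (Irgm1) to 3.42 (Iigp1), among 1123 genes higher and 879 lower. The difference between the 3′ and 5′ actin probe sets, a sign of RNA integrity, was 2.39 in mimic array 2 and 1.64 to 1.85 on the other arrays. The IRG genes of mimic array 2 differed by at most 0.24 from those of the other mimic arrays.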

How the data were processed

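RNA was measured on 6 arrays, grouped by the treatment in the labels and numbered as in their titles. The authors deposited 1 log2 value per probe set and array. The submitters' processing notes list RMA and affy without version or role, and their centring, floor and filters were not given in the sources used here. Of all values 52.6% are below 1, near the floor, which compresses differences of dim genes. Values were used as deposited.

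Among 45101 probe sets are 64 controls of the manufacturer, 34945 sets with 1 symbol, 932 with several and 9160 with none listed. Symbols were updated through Entrez identifiers to RefSeq GRCm38.p6 (34741 matched). Each of 18193 genes was read at its brightest probe set with 1 symbol. The test was limma 3.58.1 under R 4.3.3 (lmFit, eBayes, two-sided, no covariate), with p-values adjusted by Benjamini-Hochberg over all genes, with a threshold of 0.05. The method was tested on simulated normal values with equal spread in both groups. The IRG genes spread more between control arrays than between mimic arrays, a setting that was not simulated.

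The members and gene lists were chosen with earlier results of these data known. Text names all members, up to 3 passing genes of each list with the largest change (otherwise the 1 largest), all measured other IRG genes and the 5 nearest profiles. Genes named outside this rule are marker genes, chromosomal neighbours, Gbp2b, Atg5, Atg16l1, Ifng, Ifnb1, Ifngr1 and Ifngr2. Alternatives were a replicate block, leaving out each array, filters at a mean log2 of 3 and 5, other probe set choices, variance models, array weights and further normalisation.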

Additional observations from a re-analysis of the deposited data

How the results depend on the processing

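All 5 IRG genes were higher in each of the 16 alternatives, which for left-out arrays and array weights their separation fixes in advance. The replicate block, the filters, the test of every probe set and the trended variance model left the fold changes as they were. The direction in those alternatives therefore adds nothing to the main fit. Iigp1, Igtp and Ifi47 passed limma's threshold in 12 of the 16, Irgm2 in 11 and Irgm1 in 10. With 1 array left out the log2 fold change ran from 2.40 to 3.34 for Iigp1, from 0.80 to 1.11 for Irgm1, from 0.99 to 1.43 for Irgm2, from 1.14 to 1.54 for Igtp and from 1.02 to 1.43 for Ifi47. The number of IRG genes that passed ran from 0 to 5, that of related-list genes from 0 to 25 (32 with all arrays) and that of all genes from 0 to 413, and the class shift between effectors and regulators ran from 0.73 to 1.02. These fits have fewer arrays. When every probe set was tested 3 IRG genes passed, and Irgm1 (0.99) and Irgm2 (1.27) did not (adjusted p = 0.0547 and 0.0553 by limma), with more tests to adjust for. The second Iigp1 probe set ran from 2.26 to 3.40 with 1 array left out, and passed without control array 1 (adjusted p = 0.0321) and with dim probe sets left out (2.92, adjusted p = 0.0245). Over all genes, 1047 passed with array weights and 2002 with the spike-in level as covariate, against 503. A further quantile normalisation gave 329 genes higher and 291 lower, against 213 and 290.

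With the replicate number as a block, 314 genes and 19 related-list genes passed, and Irgm1 (0.99) did not (adjusted p = 0.0562 by limma), while the other 4 IRG genes did. The calls of Gm4951, Gbp3, Jak1, Ifnar1, Trim21 and Rabgap1l were also lost. So were those of further interferon targets, of which 8 type I and 4 interferon-gamma genes still rose. Without control array 3, Atg12 passed as the 1 autophagy gene to do so. It is not known whether equal numbers mark paired samples, and so few arrays cannot settle it. Deviations from the group means correlated at -0.10, 0.25 and -0.19 between arrays of the same number. Of 6 arrays 2 correlated best with their own number. The cause of these changes was not tested. Values near the floor limit what can be read in dim genes.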
